A study of Mus musculus with 28 samples.

Results

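The respiratory chain genes described here were the 86 nuclear genes whose symbols name structural subunits of complexes I to V, chosen by symbol alone among the 32285 genes of the single-cell matrices and matched by Ensembl identifier to the 56980 genes of the bulk table. Complex I had 39 of these genes (symbols that start with *Ndufa*, *Ndufb*, *Ndufc*, *Ndufs*, or *Ndufv*, without the *Ndufaf* assembly factors), complex II 4 (*Sdha* to *Sdhd*), complex III 8 (*Uqcr*), complex IV 18 (*Cox4* to *Cox8*), and complex V, the ATP synthase, 17 (*Atp5*). Measured levels played no part in the choice. *Ndufa4* and *Ndufa4l2* were kept with complex I because of their symbols, although the *Ndufa4* protein is now placed in complex IV.

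The mitochondrial respiratory chain passes electrons from NADH (complex I) and succinate (complex II) through complex III to oxygen at complex IV, and the ATP synthase uses the resulting proton gradient to make ATP. Most of its subunits are encoded in the nucleus and imported, whereas a small core set is encoded by mitochondrial DNA, so that the 2 genomes have to supply matched parts. Vascular smooth muscle relies on both glycolysis and respiration, and activated macrophages and neutrophils are known for a metabolism that leans on glycolysis.

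All vessels came from C57BL/6 mice of both sexes that had undergone 5/6 nephrectomy, a model of chronic kidney disease, before a carotid–jugular arteriovenous fistula (AVF) was made in the neck. The control vessels were the jugular veins of the unoperated side of operated mice, so that they shared the kidney injury and the surgery with the AVFs. Bulk RNA-seq used 1 library per vessel, from 7 contralateral veins and from the outflow veins of 8 early AVFs (day 3 by label), 5 mid AVFs (day 10), and 5 late AVFs (day 21). Single-cell RNA-seq used 1 contralateral, 1 early, and 1 late library, each of them a pool of 10 vessels from male and female mice. By the study's text the early and late vessels for single cells were harvested some days later than those for bulk RNA-seq, so that the groups share a name and not a day.

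Promoter windows show what some of these genes have in common at the DNA level. Of the 86 genes, 68 matched 73 RefSeq promoter windows of 300 bases (250 before and 50 after the annotated start, build GRCm38.p6). The motif GCATGCGC, read on both strands and known as the binding sequence of the nuclear respiratory factor Nrf1, was present in 10 windows (13.7%), compared with 2.71% of all 32851 windows of the same length. CCGGAAG, the core sequence of ETS-family factors such as Gabpa, was present in 17 windows (23.3%, against 8.86% of all windows), and AAGATGG, the Yy1 sequence, in 10 (13.7%, against 6.34%). The windows of the 5 genes that held both GCATGCGC and CCGGAAG are shown because they carry both sequences in 1 stretch, and capitals mark these motifs on either strand. They belong to *Atp5k* (chr5:108434350-108434649, minus strand), *Atp5l* (chr9:44920693-44920992, minus strand), *Cox6a1* (chr5:115348909-115349208, minus strand), *Sdhb* (chr4:140961021-140961320, plus strand), and *Uqcr11* (chr10:80406772-80407071, minus strand).
Atp5k: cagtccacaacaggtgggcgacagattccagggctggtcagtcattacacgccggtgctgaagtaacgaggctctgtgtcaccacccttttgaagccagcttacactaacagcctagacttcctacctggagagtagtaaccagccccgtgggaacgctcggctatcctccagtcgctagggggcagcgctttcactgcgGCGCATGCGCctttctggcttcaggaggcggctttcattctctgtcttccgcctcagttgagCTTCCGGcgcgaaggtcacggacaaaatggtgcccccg
Atp5l: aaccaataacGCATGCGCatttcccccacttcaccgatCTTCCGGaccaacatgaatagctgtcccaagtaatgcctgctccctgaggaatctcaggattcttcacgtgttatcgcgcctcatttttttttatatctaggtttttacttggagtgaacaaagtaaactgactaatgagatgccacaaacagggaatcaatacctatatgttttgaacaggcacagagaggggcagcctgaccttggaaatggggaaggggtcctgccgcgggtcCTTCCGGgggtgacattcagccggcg
Cox6a1: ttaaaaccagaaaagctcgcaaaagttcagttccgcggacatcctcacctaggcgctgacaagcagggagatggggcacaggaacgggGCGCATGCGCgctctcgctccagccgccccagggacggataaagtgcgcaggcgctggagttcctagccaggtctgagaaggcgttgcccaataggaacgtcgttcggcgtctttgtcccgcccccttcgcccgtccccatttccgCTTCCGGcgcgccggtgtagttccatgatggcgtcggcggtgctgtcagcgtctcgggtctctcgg
Sdhb: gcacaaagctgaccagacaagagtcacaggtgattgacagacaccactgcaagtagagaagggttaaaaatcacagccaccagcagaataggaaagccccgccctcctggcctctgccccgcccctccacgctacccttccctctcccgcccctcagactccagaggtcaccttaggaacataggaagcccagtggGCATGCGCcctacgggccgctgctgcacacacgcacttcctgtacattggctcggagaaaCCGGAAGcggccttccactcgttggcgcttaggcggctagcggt
Uqcr11: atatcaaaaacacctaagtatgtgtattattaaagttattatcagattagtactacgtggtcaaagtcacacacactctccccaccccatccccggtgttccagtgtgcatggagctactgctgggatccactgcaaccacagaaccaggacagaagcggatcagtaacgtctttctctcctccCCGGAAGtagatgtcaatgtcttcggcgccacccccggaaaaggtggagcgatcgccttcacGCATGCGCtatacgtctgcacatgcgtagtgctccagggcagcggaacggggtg
These matches describe letters and are not evidence of binding.

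Bulk libraries held 20254173 to 67457501 counts, and values below are each library's counts scaled to the same total (CPM). Contralateral veins had fewer genes with a count (11958 to 18283) than mid and late AVFs (24529 to 26771). Lists of cell-type markers differed between groups: summed smooth muscle markers had a median of 11141 CPM in contralateral veins against 1457, 2265, and 2803 CPM in early, mid, and late AVFs, and summed monocyte and macrophage markers went from 3441 CPM to 18786, 12556, and 11363 CPM. Skeletal muscle markers, which stand for tissue next to the vessel, were at most 47.6 CPM in every contralateral vein, and passed 4000 CPM in 4 AVFs (early 1, early 10, mid 12, and late 23). Thyroid and parathyroid markers, of other neck tissue, were at most 8.54 CPM in contralateral veins but at 14376 CPM in early 1, 5768 in late 19, and 1797 in mid 12. Their part in the results was not tested, and the counts without early 1 are given below, while without late 19 the lower genes described below numbered 22 (late against contralateral) and 41 (late against early). In whole vessels, fewer cells of one type and less RNA per cell cannot be told apart.

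The summed level of the 86 genes was highest in early AVFs and lowest after day 10. Contralateral veins had 14619 CPM in the lowest library, 17384 at the median, and 27260 in the highest, and early AVFs had 13640, 20461, and 33354. The 5 mid AVFs had 9596, 10699, 11270, 12083, and 13488 CPM, and the 5 late AVFs had 9249, 9751, 10808, 11980, and 15206. All mid AVFs lay below all contralateral veins and below all early AVFs, and among late AVFs only late 23 reached into their ranges. The early AVFs did not form a narrow group: 4 libraries (early 3, 5, 6, and 7) had 22182 to 33354 CPM and the other 4 had 13640 to 18739. The same 4 high libraries had 34691 to 68016 CPM of cytosolic ribosomal protein genes, against 23475 to 27640 CPM in the other 4. Their platelet markers had 2804 to 8811 CPM, against 418 to 1182 CPM. Genes shorter than 1000 bases took 19.1% to 32.9% of their counts, against 13.3% to 16.2%. Early 3, 5, and 6 had 21522, 19074, and 17514 genes with a count, against 24033 to 25141 in the remaining early AVFs. Early 5 and early 6 also had the most counts, 67457501 and 53097813. The parts of platelets, length, detection, and depth in this spread were not tested.

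**Figure D1:**
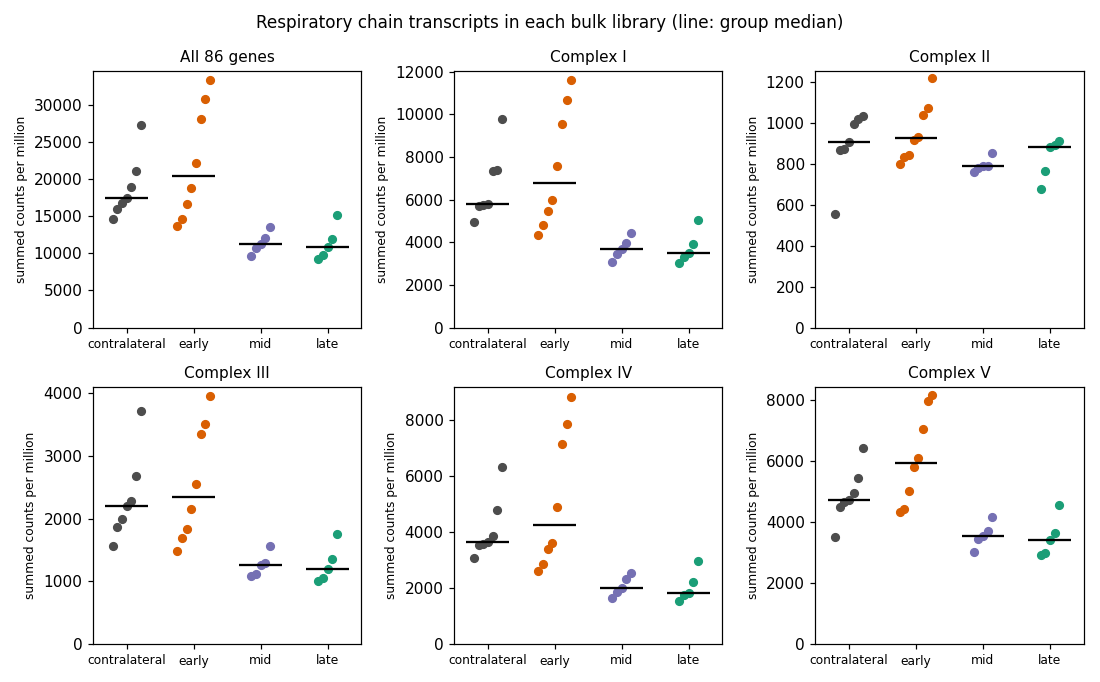
Summed level (CPM) of the nuclear respiratory chain genes in each bulk library, by group, with each complex beside the total; points are libraries and bars mark the group median. Mid and late AVFs sit between 9249 and 15206 CPM, and early AVFs spread from 13640 to 33354.

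Of the 86 genes, 83 passed the filter on low counts (a mean of at least 100 normalized counts over all libraries) among 12673 genes tested. *Cox4i2*, the hypoxia-responsive isoform of subunit IV, stayed out with 0 to 141 counts per library, and the testis-type genes *Cox7b2* (0 or 1 count) and *Cox8c* (0 counts in every library) stayed out as well. On a per-length scale, the mean level in contralateral veins was highest for *Cox6c* (1534 CPM per kb of transcript), *Uqcrb* (1336), *Ndufa1* (1096), and *Ndufa4* (1024), whose proteins are small accessory subunits. In late AVFs the highest values per length were those of *Uqcr11* (519), *Cox6c* (514), and *Atp5b* (489), and the median over the 86 genes was 130 CPM per kb against 207 in contralateral veins and 275 in early AVFs.

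Early AVFs were compared with contralateral veins to describe the first days of arterial flow. By edgeR's quasi-likelihood test (adjusted *p* under 0.05), 9 of 83 genes rose (10.8%), against 10.4% of all genes tested that were higher, and 1 fell (1.2%), against 12.8% that were lower. The share of genes that rose was thus close to the background. The median log2 fold change of the 83 genes was 0.30, compared with −0.06 over all genes. The genes that rose belonged to complex V (3), complex I (3), complex IV (2), and complex III (1).

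Of 17 ATP synthase genes 3 rose early, and the median log2 fold change of the 17 was 0.28. *Atp5g1*, which encodes the membrane-ring subunit c, had 80.7, 147, and 203 CPM (lowest, median, and highest) in contralateral veins and 186, 311, and 759 CPM in early AVFs. It had 104, 128, 145, 154, and 207 CPM in mid AVFs and 98.2, 109, 113, 139, and 231 CPM in late AVFs. Early and contralateral values overlapped only between 186 and 203 CPM, and later AVFs were back in the contralateral range or just above it. The log2 fold change of early AVFs was 1.44 ± 0.32 (SE, adjusted *p* = 0.00166, n = 8 and 7, edgeR). *Atp5d*, a subunit of the central stalk, went from 86.4, 130, and 228 CPM to 202, 279, and 452 CPM (1.11 ± 0.24, adjusted *p* = 0.00145). *Atp5g2*, the second of 3 genes for the same subunit c, rose by 1.28 ± 0.34 (adjusted *p* = 0.00742), whereas *Atp5g3*, the third, had 0.59 ± 0.24 (adjusted *p* = 0.0775). The catalytic subunits themselves did not pass the test: *Atp5b* had medians of 1113 CPM in contralateral veins and 1110 CPM in early AVFs, and *Atp5a1* had 537 and 569 CPM.

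In complex IV, *Cox4i1*, the ubiquitous isoform of subunit IV, had 284, 371, and 413 CPM in contralateral veins and 375, 613, and 1016 CPM in early AVFs (log2 fold change 0.86 ± 0.23, adjusted *p* = 0.00746). The ranges overlapped only between 375 and 413 CPM. *Cox5a*, a matrix-side subunit, rose by 0.85 ± 0.28 (adjusted *p* = 0.0253) and *Ndufs7*, which carries the last iron–sulfur cluster of complex I, by 0.94 ± 0.28 (adjusted *p* = 0.017). Complex III held both directions. *Uqcrq*, an accessory subunit next to cytochrome b, rose by 1.06 ± 0.35 (adjusted *p* = 0.0311), and *Uqcrb*, which also contacts cytochrome b, fell by 0.88 on the log2 scale (SE 0.26, adjusted *p* = 0.0133) and was the only gene of the 83 that fell. Left out together, the 4 libraries with high skeletal muscle markers changed the counts to 18 higher and 0 lower. With the 4 contralateral veins of under 14000 detected genes left out, the counts were 10 and 2. Leaving out early 1 or early 2 alone gave 18 higher genes, early 4 or early 10 gave 15, and contralateral 35 gave 14, and *Uqcrb* no longer passed without early 1, early 2, contralateral 34, or contralateral 35. The shares of all genes called with these libraries left out are not given here, so that these counts cannot be read against a background.

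**Figure D2:**
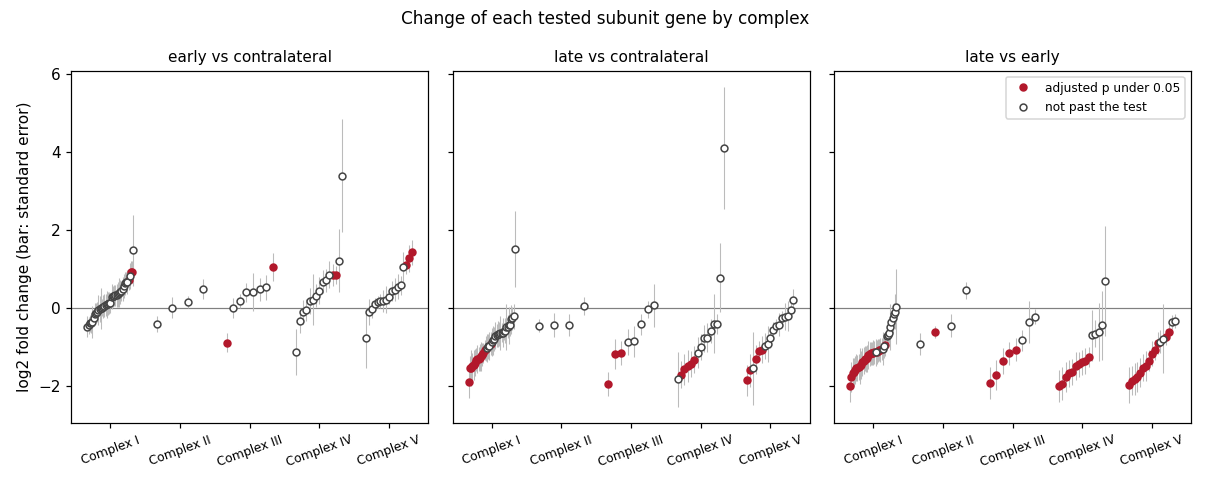
Log2 fold change (vertical axis, bars are standard errors) of each of the 83 tested genes, sorted within its complex, in early against contralateral, late against contralateral, and late against early vessels. Filled points passed the test (adjusted *p* under 0.05). In late against early AVFs these are 56 of 83 genes, all below 0, with 1 of 4 in complex II.

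The direction was the other one at day 10. In mid AVFs against contralateral veins, 0 genes rose and 30 of 83 fell (36.1%), whereas 5.45% of all genes tested were higher and 6.33% lower. The median log2 fold change was −0.84, against −0.02 over all genes. The genes that fell numbered 16 of 39 in complex I, 0 of 4 in complex II, 3 of 8 in complex III, 5 of 15 in complex IV, and 6 of 17 in complex V, and each of the 30 was at least 2-fold lower. Late AVFs gave nearly the same counts: 0 genes rose and 29 fell (34.9%), with 5.08% of all genes higher and 5.93% lower, and the median was −0.83. Their 29 genes were split 16, 0, 3, 5, and 5 over complexes I to V, and 28 of them were at least 2-fold lower. Without mid 13 the count of mid AVFs was 17, and without late 17 or late 24 that of late AVFs was 19 or 18, all lower. With each library's trend of level on transcript length taken out, described further on, most of these calls ended and both medians turned positive. Other genes up to 600 bases turned positive too, with medians of 0.70 (mid) and 0.72 (late).

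*Uqcrb* had the smallest adjusted *p* in both comparisons. Its gene lies at chr13:66900617-66905378 on the minus strand (GRCm38), and it had 335, 662, and 1209 CPM in contralateral veins and 228, 357, and 542 CPM in early AVFs. The mid AVFs had 166, 192, 204, 214, and 243 CPM and the late AVFs 168, 170, 182, 202, and 295 CPM. No mid or late AVF reached the lowest contralateral vein. The log2 fold change was −1.94 ± 0.31 in mid AVFs (adjusted *p* = 0.000111) and −1.95 ± 0.31 in late AVFs (adjusted *p* = 0.000138, edgeR).

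*Cox6c*, a small accessory subunit of complex IV, had 517, 717, and 1360 CPM in contralateral veins. It had 178, 243, 245, 292, and 308 CPM in mid AVFs and 198, 206, 221, 265, and 404 CPM in late AVFs, again without overlap (−1.72 ± 0.34 and −1.70 ± 0.34, adjusted *p* = 0.00114 and 0.00155). Among complex V genes, *Atp5md*, a small membrane subunit involved in dimers of the synthase, had 216, 305, and 513 CPM in contralateral veins, 73.3, 96.9, 101, 110, and 118 CPM in mid AVFs, and 76.5, 82.0, 83.1, 96.4, and 158 CPM in late AVFs. It had log2 fold changes of −1.83 and −1.85 (adjusted *p* = 0.00229 and 0.00249), with no AVF of these groups in the contralateral range.

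Among complex I genes named for their small *p* or large change, *Ndufa5* fell by 1.68 and 1.54 on the log2 scale in mid and late AVFs (adjusted *p* = 0.000753 and 0.00194), *Ndufb3* by 1.30 and 1.32 (0.00352 and 0.00368), and *Ndufb1-ps*, which the annotation lists as a non-coding gene, by 1.86 and 1.89 (0.00361 and 0.00384). Of the catalytic core genes named here, only *Ndufv2*, an iron–sulfur subunit of the NADH-oxidizing arm, fell (−1.09 ± 0.25 and −1.07 ± 0.25, adjusted *p* = 0.00489 and 0.00644). *Ndufs1*, *Ndufs7*, *Ndufs8*, and *Ndufv1* had log2 fold changes of −0.56 to −0.21 in these comparisons and none passed the test. For *Ndufs1* the contralateral group was wide, from 2.62 to 227 CPM, while all 10 mid and late AVFs had 72.2 to 98.0 CPM.

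The late state was then compared with the early one. In late AVFs 0 genes were higher and 56 of 83 were lower (67.5%), against 2.36% of all genes tested that were higher and 4.11% that were lower. The median log2 fold change was −1.15, compared with 0.13 over all genes. The 56 genes were 27 of 39 in complex I, 1 of 4 in complex II, 5 of 8 in complex III, 10 of 15 in complex IV, and 13 of 17 in complex V. Mid against early AVFs gave 0 higher and 49 lower (59.0%), against 0.813% and 2.6% of all genes, and a median of −1.21. Without late 17 the late count was 31, and the mid count was 29 without mid 9 and 0 without mid 13, mid 14, or mid 15. With the trend on transcript length taken out, neither comparison called any of the 83 genes. Because early AVFs enter these comparisons and the first one, their counts are not independent of each other.

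*Cox6a1*, the ubiquitous isoform of subunit VIa at chr5:115345642-115348981 (minus strand, GRCm38), whose promoter is shown above, had the largest difference in complex IV. It had 285, 512, and 1564 CPM in early AVFs against 169, 204, 211, 213, and 253 CPM in late AVFs (log2 fold change −2.0 ± 0.41, adjusted *p* = 0.00459). No late AVF reached the lowest early AVF. *Cox6b1*, a subunit at the dimer interface, had the smallest adjusted *p* (−1.67 ± 0.34, adjusted *p* = 0.00455), with 325, 581, and 1226 CPM in early AVFs and 201 to 324 CPM in late AVFs. *Atp5mpl*, *Atp5g3*, and *Cox4i1* also fell, with log2 fold changes of −1.86, −1.35, and −1.25 (adjusted *p* = 0.00459, 0.00459, and 0.00514). *Atp5e*, the smallest subunit of the stalk, fell by 1.97 (adjusted *p* = 0.0103) and *Uqcrq* by 1.91 (adjusted *p* = 0.00593). In complex I, *Ndufb1-ps* fell by 2.0 (adjusted *p* = 0.00521), and the core subunits *Ndufs7* and *Ndufs8* by 1.14 and 1.15 (adjusted *p* = 0.0283 and 0.0168).

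Complex II, which is also an enzyme of the citric acid cycle, had the fewest calls: of its 4 genes only *Sdhd* fell, in late against early AVFs (−0.61 ± 0.16, adjusted *p* = 0.0221). *Sdha*, the flavoprotein that oxidizes succinate, had 222, 323, and 488 CPM in contralateral veins and 98.5, 264, and 384 CPM in early AVFs. It had 279, 289, 312, 352, and 360 CPM in mid AVFs and 289, 343, 362, 383, and 416 CPM in late AVFs. All mid and late values were inside the contralateral range, and its log2 fold change in late against early AVFs was 0.46 ± 0.22 (adjusted *p* = 0.296). *Sdhb*, the iron–sulfur subunit, had 114, 241, and 422 CPM in contralateral veins and 247, 377, and 400 CPM in early AVFs, followed by 169 to 219 CPM in mid and 155 to 256 CPM in late AVFs (late against early −0.92 ± 0.29, adjusted *p* = 0.0547). *Sdhc*, a membrane anchor, had medians of 121, 114, 85.8, and 81.0 CPM over the 4 groups in order of time. The summed complex II level had medians of 907, 925, 790, and 883 CPM. The transcripts of *Sdha*, *Sdhb*, *Sdhc*, and *Sdhd* are 2900, 1142, 3171, and 1231 bases long, against a median of 709 over the 86 genes. The difference between complex II and the other complexes was not tested, nor was the part of length in it.

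Several core subunits elsewhere were not called either. *Uqcrc1*, a core protein of complex III, had 137, 177, and 275 CPM in contralateral veins, 149, 209, and 304 CPM in early AVFs, 185 to 223 CPM in mid AVFs, and 162 to 225 CPM in late AVFs. *Atp5b* had 569, 1113, and 1314 CPM, then 900, 1110, and 1477, then 854 to 1034, and then 762 to 1069 CPM. For both genes every mid and late AVF lay within the contralateral range, and no comparison passed the test. *Atp5a1*, *Ndufv1*, *Ndufs1*, and *Uqcrc2* did not pass it either, while *Atp5c1*, the rotor subunit, fell in late against early AVFs (−0.61 ± 0.18, adjusted *p* = 0.0398). The uncalled genes of this paragraph have long transcripts for this set, from 1653 (*Uqcrc1*) to 2590 bases (*Ndufs1*). The median over the 86 genes is 709 bases, and the part of length was not tested.

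Between mid and late AVFs no difference was called. By edgeR's quasi-likelihood test 0 of 83 genes were higher and 0 lower, as were 0.0% of all genes tested, and 0 of the 83 had an unadjusted *p* under 0.05, against 40 of 12673 genes. The DESeq2 Wald test and edgeR's likelihood ratio test called 0 of these genes too. The median log2 fold change was −0.02, with 30 genes above and 53 below 0. The largest values within complexes were small or came with a wide error, such as 0.96 ± 0.97 for *Cox7a1* and −0.21 ± 0.39 for *Ndufs4*.

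The genes that fell were mostly short, and transcript length has to be read beside each of the comparisons above. The 86 genes had a median transcript length of 709 bases (315 to 3171), and 60 were up to 1000 bases long, whereas all genes tested had a median of 2783 bases. In late against early AVFs, the 31 members up to 600 bases had a median log2 fold change of −1.48, the 26 of 600 to 1000 bases −1.21, the 21 of 1000 to 2000 bases −0.71, and the 5 longer ones −0.33. Genes outside the chain changed with length as well, with medians of −1.48, −0.83, −0.20, and 0.30 in the same bands (n = 287, 756, 2870, and 8599). In the shortest band the medians of respiratory chain genes and other genes were thus equal, and in the longer bands the respiratory chain genes were lower. The share that fell was nevertheless larger among members in the 3 shorter bands: 83.9%, 80.8%, and 42.9%, against 40.4%, 21.0%, and 4.6% of other genes, and 0 of the 5 longest fell.

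Against contralateral veins, late AVFs had medians of −1.17, −0.73, −0.60, and −0.43 for members in these bands and −0.83, −0.50, −0.18, and 0.12 for other genes. In early AVFs against contralateral veins the medians of other genes went down with length (0.59, 0.36, 0.07, and −0.15), whereas those of members were highest in the second band (0.30, 0.48, 0.13, and −0.01). Across genes, Spearman's rho of length with the late-against-early change was 0.58 over the 83 members and 0.41 over 12512 other genes, as a description, since genes are not independent samples and share the libraries. The share of all counts that fell on genes up to 1000 bases long had medians of 14.4%, 17.6%, 10.4%, and 10.6% in contralateral veins, early, mid, and late AVFs.

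Taking out each library's trend with length over all genes changed the comparisons. Late against early and mid against early then gave 0 higher and 0 lower genes, with medians of −0.01 and −0.06. Late against contralateral gave 11 higher and 2 lower with a median of 0.20. Mid against contralateral gave 9 higher and 3 lower with a median of 0.12, so that the direction of the median turned. In late against contralateral, other genes then had medians of 0.72, 0.53, 0.25, and 0.05 from the shortest to the longest band. Members had 0.32, 0.35, −0.16, and −0.31, below the other genes in each band. Up to 600 bases, 16.1% of members and 18.5% of other genes were then higher, and from 600 to 1000 bases 23.1% and 18.3%. In mid against contralateral these shares were 9.68% and 18.1%, then 23.1% and 18.8%. The higher calls were thus not particular to members. Early against contralateral gave 16 higher and 1 lower with a median of 0.18. In the 2 shortest bands 16.1% and 38.5% of members were then higher, against 24.7% and 21.0% of other genes. With the trend removed, rho with length was −0.50 among members in late against early AVFs and −0.01 among other genes. *Uqcrb* then had −0.78 in early AVFs against contralateral veins (adjusted *p* = 0.00843) and −0.49 in late AVFs (adjusted *p* = 0.218), and its late-against-early change turned to 0.29. Whether the dependence on length came from the tissue or from the libraries was not tested.

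**Figure D3:**
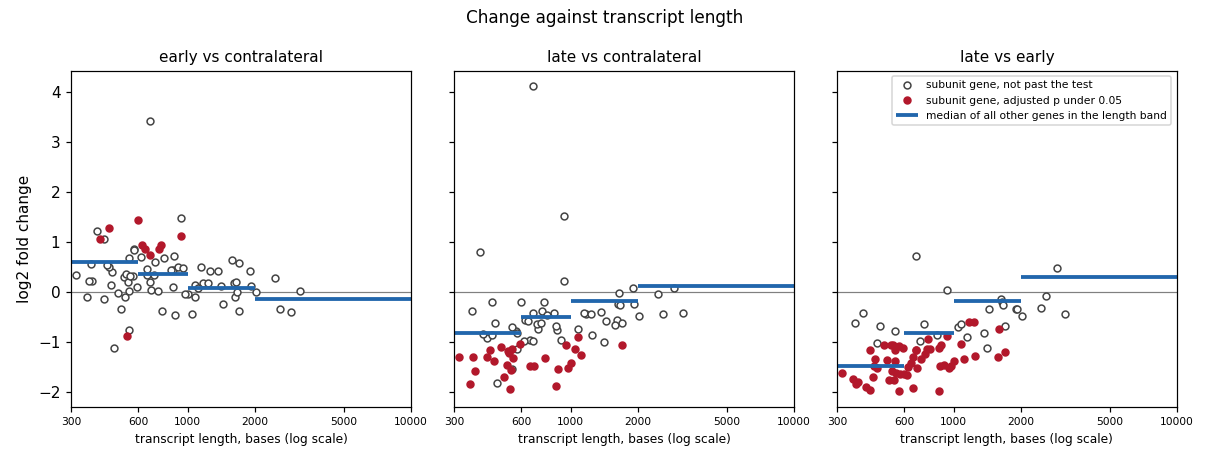
Log2 fold change against transcript length (log axis, bases) of each tested respiratory chain gene (points, filled where past the test) in 3 comparisons, with the median of all other genes in each length band (lines). In late against early AVFs the other genes go from −1.48 up to 600 bases to 0.30 above 2000 bases, and the respiratory chain genes from −1.48 to −0.33.

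Some subunits of complex IV and *Ndufa4* exist as pairs of isoforms with different tissue use, and their ratios within a library do not depend on library size. *Cox6a2*, the heart and skeletal muscle isoform of subunit VIa, had 0, 0.0869, and 18.9 CPM in contralateral veins and 1.00, 9.39, and 110 CPM in early AVFs. It had 8.50, 10.6, 27.6, 48.0, and 147 CPM in mid AVFs and 0.738, 0.809, 10.6, 22.9, and 227 CPM in late AVFs. The log2 ratio *Cox6a2*/*Cox6a1* (0.5 CPM added to each) was higher than in contralateral veins by 5.71 in mid AVFs (exact permutation test, two-sided, *p* = 0.00126, the smallest it can give, adjusted *p* = 0.0189 over 15 comparisons) and by 4.21 in late AVFs (exact permutation test, adjusted *p* = 0.0426), and by 2.86 in early AVFs (exact permutation test, adjusted *p* = 0.103). The AVFs with most *Cox6a2* were also those with most skeletal muscle markers: late 23 had 227 CPM beside 12868 CPM of markers, mid 12 had 147 beside 10679, and early 10 and early 1 had 6534 and 4716 CPM of markers.

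*Ndufa4l2*, the hypoxia-inducible paralog of *Ndufa4*, had 0, 0.201, and 19.2 CPM in contralateral veins, 5.56, 10.4, and 18.7 CPM in early AVFs, 8.20 to 14.5 CPM in mid AVFs, and 9.25 to 13.4 CPM in late AVFs. Its values lay close together among AVFs and scattered among contralateral veins. The log2 ratio *Ndufa4l2*/*Ndufa4* was highest in the contralateral veins with most detected genes, −4.11 in 633 (18283 genes) and −5.96 in 27 (17595 genes). It was lowest, −10.4, in contralateral 35 (15714 genes), and the part of detection in this spread was not tested. The ratio *Ndufa4l2*/*Ndufa4* was higher by 3.94 in mid and 4.02 in late AVFs (exact permutation test, adjusted *p* = 0.0316 for both). In early AVFs it was higher by 2.54 (exact permutation test, adjusted *p* = 0.0573). Over all kept single cells *Ndufa4l2* went the other way, with 26.2 (contralateral), 12.6 (early), and 13.3 CPM (late). *Ndufa4* had 256, 264, and 182 CPM in these cells, from 1 library per condition. The *Ndufa4l2* transcript is 934 bases long and that of *Ndufa4* 452, and *Ndufa4* itself fell by 1.43 and 1.40 on the log2 scale in mid and late AVFs (adjusted *p* = 0.00583 and 0.00794, edgeR). By edgeR's test on counts, neither *Cox6a2* nor *Ndufa4l2* passed in any comparison. The ratios *Cox4i2*/*Cox4i1*, *Cox7a1*/*Cox7a2*, and *Cox8b*/*Cox8a* had differences of −0.61 to 1.71, and none passed the test (exact permutation test, adjusted *p* of 0.152 to 0.523). With 5 against 7 libraries these calls rest on few values: without contralateral 28, the *Ndufa4l2*/*Ndufa4* ratio had an adjusted *p* of 0.0866 in mid and late AVFs and the *Cox6a2*/*Cox6a1* ratio one of 0.0649 and 0.106 (exact permutation test).

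**Figure D4:**
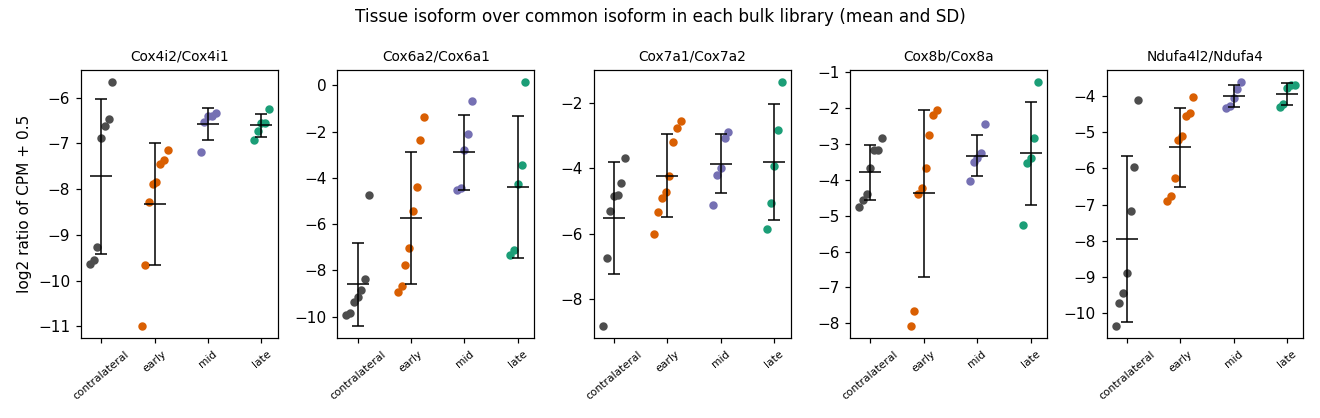
Log2 ratio of the tissue-restricted to the ubiquitous isoform (0.5 CPM added to each) in each bulk library by group; points are libraries and bars give the group mean and SD. *Cox6a2*/*Cox6a1* and *Ndufa4l2*/*Ndufa4* lie lowest in contralateral veins, with means of −8.61 and −7.95.

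Other genes of the mitochondrion from fixed lists give the surroundings. Of all genes tested, 10.4% were higher and 12.8% lower in early AVFs against contralateral veins. The lower shares were 6.33% (mid) and 5.93% (late) against contralateral veins, and 4.11% in late against early AVFs. Of the 8 mitochondrially encoded subunits that passed the filter (13 in the list), 0 changed in early AVFs, 5 fell in mid and in late AVFs against contralateral veins (median log2 fold change −0.95 and −0.97), with *mt-Cytb*, the cytochrome b of complex III, at −1.06 in late AVFs, and 3 fell in late against early AVFs. Of 42 assembly factors tested, 1 rose and 2 fell in early AVFs, 7 fell in late AVFs against contralateral veins, among them *Sdhaf4* (−1.44) and *Ndufaf2* (−1.41), and 4 fell in late against early AVFs. Of 77 mitochondrial ribosomal protein genes, 9 rose and 2 fell early, 7 fell late, and 21 fell from early to late (median −0.95). The share of these 77 that rose early was close to that of all genes. The citric acid cycle list (17 genes) had 2 higher and 6 lower in early AVFs, with *Dld* and *Pdhb*, both of the pyruvate dehydrogenase complex, at −1.06 and −1.16, and 4 lower in late AVFs. Its median in late against early AVFs was −0.18, with 1 gene higher and 1 lower.

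Electron carriers (14 genes) had 2, 3, and 1 lower in early against contralateral, late against contralateral, and late against early AVFs. *Cycs*, cytochrome c, fell by 1.53 on the log2 scale in the last of these. The share of carriers that fell in early AVFs was close to that of all genes (12.8%). Among 14 regulators of mitochondrial biogenesis only *Tfam*, which packages mitochondrial DNA, fell (−1.32 in early and −1.48 in late AVFs against contralateral veins). *Nrf1*, *Gabpa*, and *Yy1*, whose motifs are given above, did not pass the test in any comparison, with log2 fold changes of 1.24, 0.33, and −0.65 in late AVFs against contralateral veins (adjusted *p* = 0.242, 0.709, and 0.195, edgeR). Of 76 cytosolic ribosome genes, 59 rose in early AVFs (median 1.23) and 71 fell from early to late (median −1.70). In late AVFs against contralateral veins 5 of them fell, with a median of −0.46.

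Single cells were used to ask in which lineages these genes were high. Of 26438 barcodes, 16893 were kept (6319 contralateral, 4753 early, 5821 late), with median UMIs per cell of 2751, 8951, and 15425 in that order. Cells formed 15 clusters, of which 13 were named from fixed markers and 2 stayed unnamed. With 1 library per condition there is no test, and intervals below are exact Poisson intervals (95%) that cover counting error only. The doublet caller marked 0, 2, and 120 cells in the 3 libraries, so few in the contralateral and early libraries that doublets there are taken as not removed, and 14 to 19 barcodes were shared between pairs of libraries.

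Smooth muscle cells had the highest summed level in contralateral veins, 20398 CPM of UMIs (19940 to 20864, 50 cells). The other vessel-wall lineages of contralateral veins were lower: 13646 CPM in Schwann cells, 11916 CPM in fibroblasts, and 10317 CPM in endothelial cells. Among blood-derived cells, T cells had 11438 CPM, monocytes and macrophages 8495, platelets 7989, neutrophils 4939, and erythroid cells 1338. The counting intervals of neighbours in this order did not overlap. Smooth muscle was not highest in the other libraries. In the early one endothelial cells (18337 CPM) and T cells (18015) were above smooth muscle cells (17646). In the late one T cells had 14351 CPM and smooth muscle cells 14202, with overlapping intervals. Bulk markers of smooth muscle and of other cell types differed between the groups, and the part of cell composition in the bulk levels was not tested.

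Early AVFs were above contralateral veins in 7 of 8 lineages with at least 50 cells in both. Monocytes and macrophages went from 8495 to 16184 CPM, with 74 of 82 members above and 1 below by non-overlapping intervals. Endothelial cells went from 10317 to 18337 CPM (67 cells in the early library), T cells from 11438 to 18015, and fibroblasts from 11916 to 14847. Of the contralateral fibroblasts 1780 of 1891 were in one cluster and of the early ones 415 of 418 in another, so that the last pair compares different clusters. The pair of monocytes and macrophages does so as well. Of its contralateral cells 555 of 637 were in a cluster that held 19 of the 1897 early ones. Smooth muscle cells were the exception, at 20398 and 17646 CPM, with 0 members above and 25 of 81 below. The median log2 ratio of the members was 0.80 in monocytes and macrophages, against −0.18 over all 5587 genes compared there. The rise was not particular to the chain. In the same cells cytosolic ribosome genes went from 80992 to 127134 CPM and mitochondrial ribosomal protein genes from 1949 to 3196. Mitochondrially encoded subunits went from 26117 to 36113 CPM, assembly factors from 841 to 1056, electron carriers from 263 to 361, and citric acid cycle genes from 720 to 808. Biogenesis regulators went from 361 to 245 CPM.

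Late AVFs were below early AVFs in all 7 lineages compared. Fibroblasts went from 14847 to 10616 CPM, with 76 of 82 members below and 2 above. Monocytes and macrophages went from 16184 to 12892 (74 of 83 below, 0 above), smooth muscle cells from 17646 to 14202 (68 of 82 below, 0 above), and T cells from 18015 to 14351 (46 of 78 below, 1 above). In neutrophils the values were 7748 and 7332 CPM, and no member had intervals apart. Late AVFs were nevertheless above contralateral veins in 5 of the 7 lineages, with 12892 against 8495 CPM in monocytes and macrophages and 14351 against 11438 CPM in T cells, which differs from the bulk comparison, and were below in fibroblasts (10616 against 11916) and smooth muscle (14202 against 20398). Fibroblasts of contralateral veins came mostly from one cluster (1780 cells) and those of late AVFs from another (1921 cells), and most contralateral monocytes and macrophages were in a cluster of their own (555 cells), so that these values compare different clusters as well as different times.

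A dependence on transcript length was also present in single cells, whose libraries read the 3′ end. Across all genes compared, Spearman's rho of length with the late-against-early ratio was 0.35 in fibroblasts and 0.37 in monocytes and macrophages, close to the bulk value, and with the early-against-contralateral ratio it was −0.36 and −0.43, compared with −0.11 over other genes in bulk. Over the members, the late-against-early values were 0.21 and 0.08. These are descriptions across genes that share a library. In fibroblasts, the median log2 ratio of late against early was −0.45 for members up to 600 bases and −0.30 for those above 2000 bases, with −0.27 and 0.02 for other genes. In monocytes and macrophages the values were −0.32 and −0.19 for members and −0.19 and 0.02 for other genes. The 3 libraries also differed in depth, and its part in the differences between them was not tested.

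**Figure D5:**
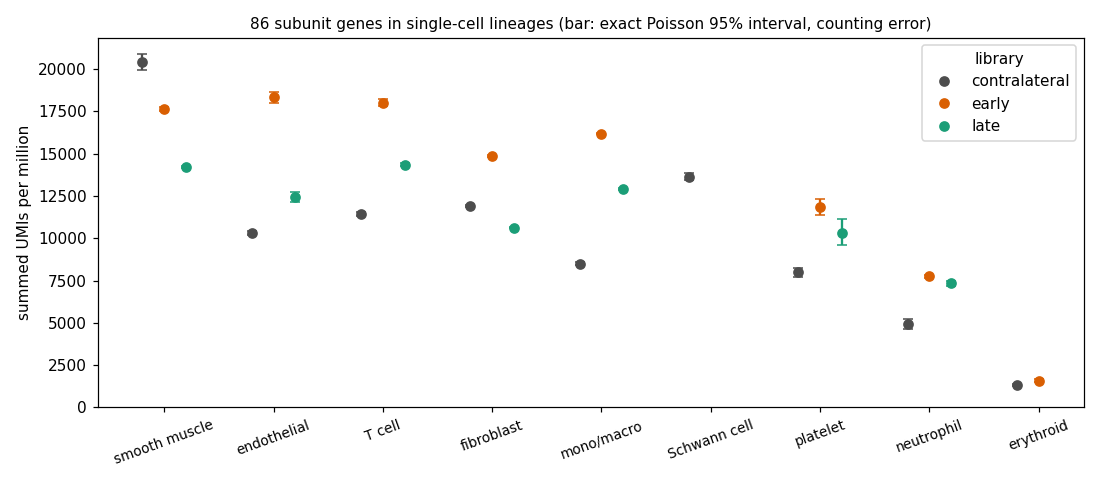
Summed level of the nuclear respiratory chain genes (CPM of UMIs) by lineage in the contralateral, early, and late libraries; bars on the points are exact Poisson intervals, which cover counting error only. Smooth muscle is highest in contralateral veins (20398 CPM) and early values exceed late values in every lineage plotted with both.

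Complex by complex, the early-to-late difference was shared in fibroblasts: complex I went from 4895 to 3447 CPM, complex II from 234 to 190, complex III from 1423 to 1070, complex IV from 3834 to 2741, and complex V from 4460 to 3169. In monocytes and macrophages complex II went from 244 CPM in contralateral veins to 308 and 232 CPM in early and late AVFs, whereas complex IV went from 2170 to 4653 and 3642 CPM. In smooth muscle cells every complex was highest in contralateral veins, with 425 CPM for complex II against 305 and 239 CPM, and 6978 CPM for complex I against 6238 and 4973 CPM.

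The isoforms were unevenly spread over lineages. *Cox4i2* was at 62.3 CPM (39.5 to 93.5) in contralateral smooth muscle cells and at 15.7 and 17.7 CPM in early and late ones, whereas no other lineage had more than 4.6 CPM, although 0 UMIs in contralateral neutrophils and late platelets gave exact upper limits of 17.9 and 53.9 CPM. *Ndufa4l2* was at 138 CPM (103 to 182) in contralateral smooth muscle cells and at 14.5 and 8.02 CPM in early and late ones. In fibroblasts it was at 51.2, 49.1, and 23.7 CPM, and in monocytes and macrophages at 1.51, 0.67, and 0.42 CPM. At the level seen in blood cells, free RNA cannot be told from expression. *Cox6a2*, which reached 227 CPM in a bulk AVF, had at most 2.61 CPM in a named lineage and 12.4 CPM in the unnamed cells of the early library.

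Genes with and without the promoter motifs had similar medians. In late against early AVFs, the 10 tested genes with GCATGCGC had a median log2 fold change of −1.24 and 7 of them fell, and the 57 without it had −1.16 and 41 fell. With CCGGAAG, 17 genes had −1.30 (14 fell) against −1.14 for the 50 without it (34 fell). Of the genes printed above, *Cox6a1* fell by 2.0 and *Uqcr11* by 1.36 on the log2 scale, and *Sdhb* had −0.92 without passing the test. *Atp5l* was hardly counted in bulk (means of 16.6, 9.15, and 5.96 CPM in contralateral veins, early, and late AVFs) but had 328, 498, and 359 CPM in the pooled cells of the libraries of the same name.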

How the data were processed

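RNA was measured in 25 vessels by bulk RNA-seq and in 3 pools of 10 vessels by single-cell RNA-seq. For bulk RNA-seq the authors deposited unnormalized read counts per Ensembl gene from poly(A)-selected, ultra-low-input, paired-end libraries. The single-cell matrices, as deposited, hold whole UMI counts, and their headers name Cell Ranger 6.0.2. The submitters' processing notes name STAR and the builds mm10 and GRCm38, and the sources used here do not give the counter or annotation of the bulk table. Groups came from the deposited labels. No label pairs the libraries, and where nothing says otherwise each library was taken as 1 vessel, so that *p* values measure the spread between these libraries.

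Genes with a mean normalized count of at least 100 were fitted together with edgeR 4.0.16 (R 4.3.3; TMM scaling, quasi-likelihood test, 1 mean per group, all 25 libraries), and *p* values were adjusted over all 12673 genes (Benjamini–Hochberg, threshold 0.05). The study's text gives more than one threshold, and 0.05 was used here. Total counts per library (20254173 to 67457501) were not the limit on precision, which came from the spread between libraries (edgeR's biological coefficient of variation 0.843). With 1 library per vessel, spread from the vessels and from library preparation cannot be told apart. The levels in CPM use total counts. Isoform ratios used log2 of CPM plus 0.5 and an exact permutation test over 15 comparisons. Transcript length was that of the shortest principal transcript in GENCODE vM21, a reference of the same build. Motifs were searched on both strands of RefSeq promoter windows. Cells were kept between 200 and 6000 detected genes and up to 10% mitochondrial UMIs, clustered with scanpy 1.11.5 (12 components, resolution 0.5), and named from marker lists.

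Genes named in the text were the isoform pairs, complex II, the catalytic core, and per comparison the 5 smallest adjusted *p* values in each direction and the largest changes of each complex. The genes and all lists were chosen with earlier results of these data known. Alternatives were DESeq2 1.42.0 (size factors, Wald test), total-count scaling, the likelihood ratio test, other filters, sex as a term, and each library left out in turn. Leaving out libraries with high skeletal muscle markers or few detected genes, and taking out the length trend, were added after seeing the data. The fits were tested on simulated data. Human data of the study were not used here. One gene that the naming rule would give is not reported here.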

Additional observations from a re-analysis of the deposited data

Results flagged for a closer look

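In 220 groups of libraries (55 measures in 4 groups), 16 values stood far from the rest of their group, and chance alone gives about 1 in 20 groups. Late 23 held 7 of them, all high: *Ndufs4* (89.0 CPM), *Uqcrb* (295), *Cox5a* (68.6), *Cox6a2* (227), *Cox7a1* (73.0), *Atp5j* (385), and *Atp5md* (158). This library also had the most skeletal muscle markers, 12868 CPM, and its part in these values was not tested. Contralateral 35 held 4, again all high: *Ndufa4* (918 CPM), *Cox6a2* (18.9), *Cox6c* (1360), and *Atp5mpl* (475). The others were the complex II sum in contralateral 632 (555.8 CPM, low), *Ndufa4l2* in contralateral 633 (19.2, high), *Cox5a* in contralateral 31 (115, high), *Sdhb* in mid 13 (169, low), and *Cox6a2* in mid 12 (147, high).

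By a direct test, the difference from contralateral veins changed between time points for many of these genes. This test, mid or late against early AVFs, equals the difference between the 2 contrasts, so these are the same calls as above. They were 49 genes between early and mid AVFs (59.0%, against 2.6% of all genes lower) and 56 between early and late AVFs (67.5%, against 4.11%). All were lower at the later time. The first count was 0 without mid 13, mid 14, or mid 15, and the second was 31 without late 17. With the trend on transcript length taken out, 0 genes passed in either.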

How the results depend on the processing

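The respiratory chain counts kept their direction under DESeq2 size factors, the likelihood ratio test, both filters, and sex as a term. Total-count scaling moved the median of all genes from −0.02 to 0.09 (mid and late against contralateral) and from 0.13 to 0.21 and 0.22 (mid and late against early), and the counts of lower genes became 30, 26, 40, and 48. Early against contralateral had 9 higher and 1 lower genes, 17 higher with the DESeq2 Wald test, 18 and 0 without libraries with high skeletal muscle markers, 10 and 2 without libraries with few genes, and 16 and 1 without the length trend. Apart from the length bands, shares of all genes called are not given for these alternatives or for libraries left out. The Wald and likelihood ratio tests called 1 gene higher in mid and in late against contralateral. Without libraries with high skeletal muscle markers, medians were −1.60 (mid against early) and −1.61 (late against early). Without the length trend, mid against contralateral had 9 higher and 3 lower (median 0.12), late against contralateral 11 and 2 (0.20), mid against early 0 lower (−0.061), and late against early 0 lower (−0.0056). In mid and late against contralateral, other genes up to 600 bases then had medians of 0.70 and 0.72. Single members turned positive too. In mid against contralateral these were *Ndufa4* 0.021, *Ndufa1* 0.12, *Atp5mpl* 0.25, *Ndufs8* 0.51, *Cox4i1* 0.69, *Cox5a* 0.70, *Uqcrq* 0.75, *Atp5g1* 1.05, *Atp5g2* 1.24. In late against contralateral these were *Cox8a* 0.0017, *Ndufa4* 0.13, *Atp5mpl* 0.30, *Ndufa1* 0.34, *Ndufs8* 0.66, *Cox4i1* 0.67, *Uqcr11* 0.72, *Uqcrq* 0.78, *Ndufs7* 0.82, *Atp5g1* 1.00, *Atp5g2* 1.19. In mid against early these were *Uqcr11* 0.064, *Atp5md* 0.069, *Cox6c* 0.069, *Ndufa1* 0.22, *Uqcrb* 0.24. In late against early these were *Atp5mpl* 0.022, *Atp5c1* 0.026, *Ndufs7* 0.041, *Atp5d* 0.041, *Ndufa4* 0.080, *Atp5j* 0.082, *Atp5md* 0.11, *Ndufb3* 0.12, *Cox6c* 0.15, *Atp5g2* 0.18, *Uqcr11* 0.27, *Uqcrb* 0.29, *Ndufa1* 0.44. The 3 alternatives on skeletal muscle markers, detected genes, and length were chosen after seeing the data, and the cause of these changes was not tested.

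With each library left out in turn, early against contralateral ranged from 7 to 18 higher and 0 to 1 lower genes (median 0.23 to 0.50), mid against contralateral from 17 to 38 lower and 0 to 1 higher (−0.98 to −0.80), late against contralateral from 18 to 39 lower and 0 to 1 higher (−1.08 to −0.76), mid against early from 0 to 62 lower (−1.47 to −1.13), late against early from 31 to 63 lower (−1.46 to −1.10), and late against mid stayed at 0 (−0.13 to 0.05). The *Cox6a2*/*Cox6a1* ratio ranged from 2.24 to 3.51 (early), 5.15 to 6.36 (mid), and 3.07 to 4.95 (late), with adjusted *p* (exact permutation test) of 0.039 to 0.189, 0.0162 to 0.0649, and 0.0162 to 0.106. The *Ndufa4l2*/*Ndufa4* ratio ranged from 2.14 to 3.18, 3.54 to 4.58, and 3.62 to 4.66, with adjusted *p* of 0.0162 to 0.107, 0.0162 to 0.0866, and 0.0162 to 0.0866. Each of these 4 mid and late calls was lost without any 1 of contralateral 28, 31, 34, or 632, and some were lost without other libraries. With 0.1 CPM added, the early ratios were 4.11 and 3.51, both with an adjusted *p* of 0.0427. Of 10080 values of named genes under alternatives, 9490 stayed the same, 258 lost and 294 gained significance, 38 reversed, and 319 of those with neither value past the test changed sign. No paired analysis was possible because the labels' library numbers are not shared between groups. In cells, the order of early and contralateral held in 7 of 8 or 7 of 7 lineages, and early exceeded late in 7 of 7 or 8 of 8, under 5 alternatives, of which leaving out called doublets removed 0 contralateral and 2 early cells. Depth left the level of *Cox4i2* in small lineages of cells uncertain, since 0 UMIs had an exact upper limit of 53.9 CPM in late platelets.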

Other observations

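*Atp5l*, subunit g of the ATP synthase, differed most between the 2 assays: its log2 ratio of pooled cells over bulk (10 CPM added to each) was 3.67 in contralateral veins, 4.73 in early AVFs, and 4.53 in late AVFs, and it was the 1 gene of 86 over 3 in all 3 groups. *Atp5g2* followed with 2.25, 2.24, and 2.81. Below 0 in all 3 groups were, for example, *Cox8b* (−2.49, −2.66, and −2.24) and *Sdha* (−1.96, −1.64, and −2.28), both chosen after their values were seen. The median gene had −0.83, −0.57, and 0.05. The way in which reads of genes with near-identical copies were assigned in the bulk table is not given in the sources used here, and its part in these values was not tested.

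Among lineages with at least 50 cells, erythroid cells had the lowest level in the libraries with that many of them, 1338 CPM in the contralateral and 1586 CPM in the early library. Platelets, which have no nucleus, had 7989, 11832, and 10324 CPM in the contralateral, early, and late libraries, with 3001, 4772, and 3680 CPM of complex IV genes and 79.2, 69.0, and 87.6 CPM of complex II genes.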
